A study of Sus scrofa with 57 samples.

Results

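The regions described here are the places in the pig genome with the most captured methylated DNA in a table of regions that the authors had called different between obese and lean pigs. They were selected on the normalized read counts themselves: a region on chromosomes 1 to 18 was a member where the mean of the obese and the lean group average was at least 40. This gave 415 members among 7401 regions of the table, or 5.61%, and 6654 other regions on the same chromosomes served as the background. A normalized read count is the number of reads of a library in the region divided by a constant of that library.

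Mature adipocytes were isolated with collagenase from retroperitoneal fat of F2 pigs of a Duroc and Göttingen minipig inter-cross, and all animals ate freely. The pigs were chosen from a larger F2 population that descends from obesity-prone Göttingen minipigs and from lean Duroc and Yorkshire production pigs. DNA carrying methylated CpG sites was captured on beads and sequenced (mDNAcap) in pigs at the obese and the lean extreme of that population, males and females, and the comparison holds 11 libraries of each group. Of 12 obese pigs with such a library 1 is not named in the header of the table and is not analysed here. RNA was sequenced in 5 lean and 5 obese males, and reduced representation bisulfite sequencing (RRBS) was done on the same cells. Pig-411 carries the label obese, but the list of lean libraries in the header of the table names it, so its values stand among the lean ones. The values carry no names of animals, so libraries are called here by their position, such as obese value 9, and no term for sex or run could be fitted. The header lists 5 libraries of each group in one run directory and 6 of each group in the other.

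In mammals a methyl group on the cytosine of a CpG site is the main chemical mark on DNA, and capture of methylated fragments gives more reads where methylated CpGs stand close together. Repeated DNA and the copies of ribosomal RNA genes hold many such sites, and at imprinted genes the copies from mother and father differ in methylation. Small nucleolar RNAs guide the chemical modification of other RNAs, and some of their genes lie in imprinted clusters.

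The members covered 974400 of the 9255400 bases of all regions, or 10.5%, and held most of the reads. Their share of the reads within regions ran from 68.7% to 72.2% in the obese libraries with a median of 70.7%, and from 66.7% to 72.5% in the lean ones with a median of 69.5%. The shares of the groups overlapped over almost their whole range. The reads behind them, rebuilt from constants that are given to 2 decimals and so approximate, numbered 87051 to 801268 in the obese libraries (median 343432) and 102005 to 1082320 in the lean ones (median 297039). Libraries with fewer reads have the larger counting error.

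A single member carried a large part of these reads. It lies on chromosome 16 from 36780001 to 36788300 (Sscrofa10.2, as all positions here), on the locus of PPAP2A, an enzyme that removes phosphate from lipid phosphates. Its normalized count was 85338 at the lowest, 114348 at the median and 149674 at the highest in obese libraries, against 114606, 151195 and 192277 in lean ones. The lean values were the higher ones on the whole, and the groups overlapped between 114606 and 149674. The log2 difference, obese minus lean, was −0.44 (SE 0.51, limma adjusted p = 0.395), and it passed the threshold when the prior variance was not allowed to follow the level (SE 0.14, adjusted p = 0.00975), while with values left out in turn the adjusted p ran from 0.334 to 0.461. The region took 22.9% to 37.0% of all reads within regions in obese libraries and 29.4% to 40.5% in lean ones. Without it the share of the other members was 53.8% to 62.1% in obese and 49.6% to 56.0% in lean libraries, with medians of 57.4% and 53.5%. PPAP2A RNA was at a mean of 6.39 FPKM (a fragment count scaled to transcript length and library size), 5.94 in lean and 6.84 in obese pigs, and did not pass the test (adjusted p = 0.509).

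The members were longer than the other regions. Their median length was 1900 bases against 1100, with a range of 1000 to 15700, and 62 members (14.9%) were at least 3000 bases long against 1 other region. The most frequent length was exactly 1900 bases, found in 83 members (20.0%) and in 0.857% of the other regions. Regions were built from windows of 1000 bases moved in steps of 100, and 1900 bases is the span of the 10 windows that share a given step. How the reads lie within such a region is not known from the table. A long region collects more reads, and 175 members had a normalized count of at least 40 per 1000 bases, while the remaining members reached the threshold with their length. No other region could have such a value, since a region is at least 1000 bases long.

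**Figure D1:**
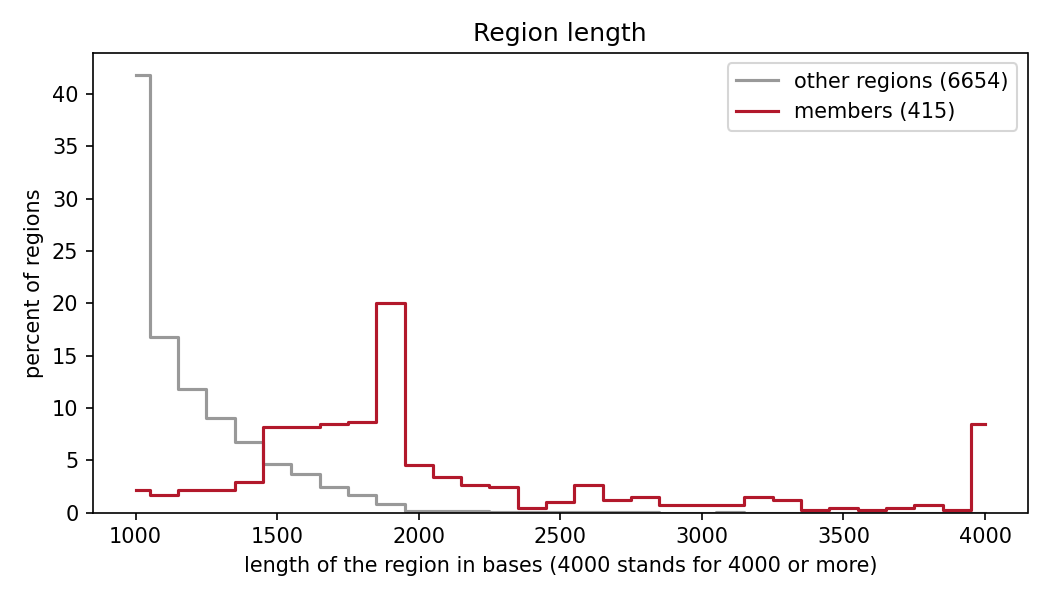
Length of the 415 members and of the 6654 other regions on chromosomes 1 to 18, as the percent of each set at every length in steps of 100 bases; lengths of 4000 and above are drawn at 4000. The members peak at 1900 bases with 20.0%, and the other regions at 1000.

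Close to a majority of the members lay beside another member. With a gap of at most 10000 bases between neighbours, 195 members (47.0%) fell into 52 clusters, against 26.7% of all regions on these chromosomes. Chromosome 6 held the most members with 71, followed by chromosome 1 with 48 and chromosome 3 with 47. As a share of the regions on a chromosome, the members made up 10.1% on chromosome 6 and 2.28% on chromosome 8. Members also stood near the ends of the mapped genes: 142 (34.2%) lay within 2000000 bases of the outermost gene locus of their chromosome or beyond it, against 12.9% of the other regions. This distance was chosen after the positions were seen.

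The largest cluster had 12 members on chromosome 6 between 143404501 and 143459000, none of them on a gene locus, with means from 77.8 to 1539.6. By limma 0 of the 12 were called, and at an unadjusted p under 0.05 there were 0 as well. Without obese value 9, 5 of them passed, and without obese value 2, obese value 11, lean value 4, lean value 7 or lean value 11, 2 did. At a pseudocount of 5, 1 passed. Its neighbour on the same chromosome, from 143350801 to 143390100, had 10 members, of which 1 was lower in obese pigs, and that call was lost under both alternative scalings described below. In this cluster 6 members passed without obese value 9, 4 without lean value 11, 3 without lean value 4 or lean value 7, and 2 without obese value 11, lean value 2 or lean value 8 or at a pseudocount of 5. In both clusters obese value 9 was the highest of the 22 values in 5 members, at a median of 3.04 times the median of the region in the first and 2.41 times in the neighbour. The same libraries were high along a cluster, so its members are not independent of each other.

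The third cluster lay on chromosome 2 from 100108201 to 100171000 and had 9 members, 6 of them on the locus of ENSSSCG00000023484. Of these, 2 also overlapped ENSSSCG00000024741, and both genes were listed at 0 FPKM in every pig. The member with the most reads there, from 100157601 to 100171000, had normalized counts of 1998 at the lowest, 3159 at the median and 4112 at the highest in obese libraries, and 1538, 2441 and 3583 in lean ones. Obese values were the higher ones on the whole, the groups overlapped, and the difference did not pass (0.34, SE 0.18, limma adjusted p = 0.076). It passed under both other scalings and without obese value 9, lean value 9 or lean value 10, and with the 22 values left out in turn its adjusted p ran from 0.0342 to 0.146. The member from 100123201 to 100136200 was higher in obese pigs by 0.44 (SE 0.18, limma adjusted p = 0.0209), from 477 to 1596 in obese and from 584.3 to 1183 in lean libraries. It was the 1 member of the cluster past the threshold, whereas 7 of the 9 passed without obese value 9, and 6 and 3 did under the other scalings.

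**Figure D2:**
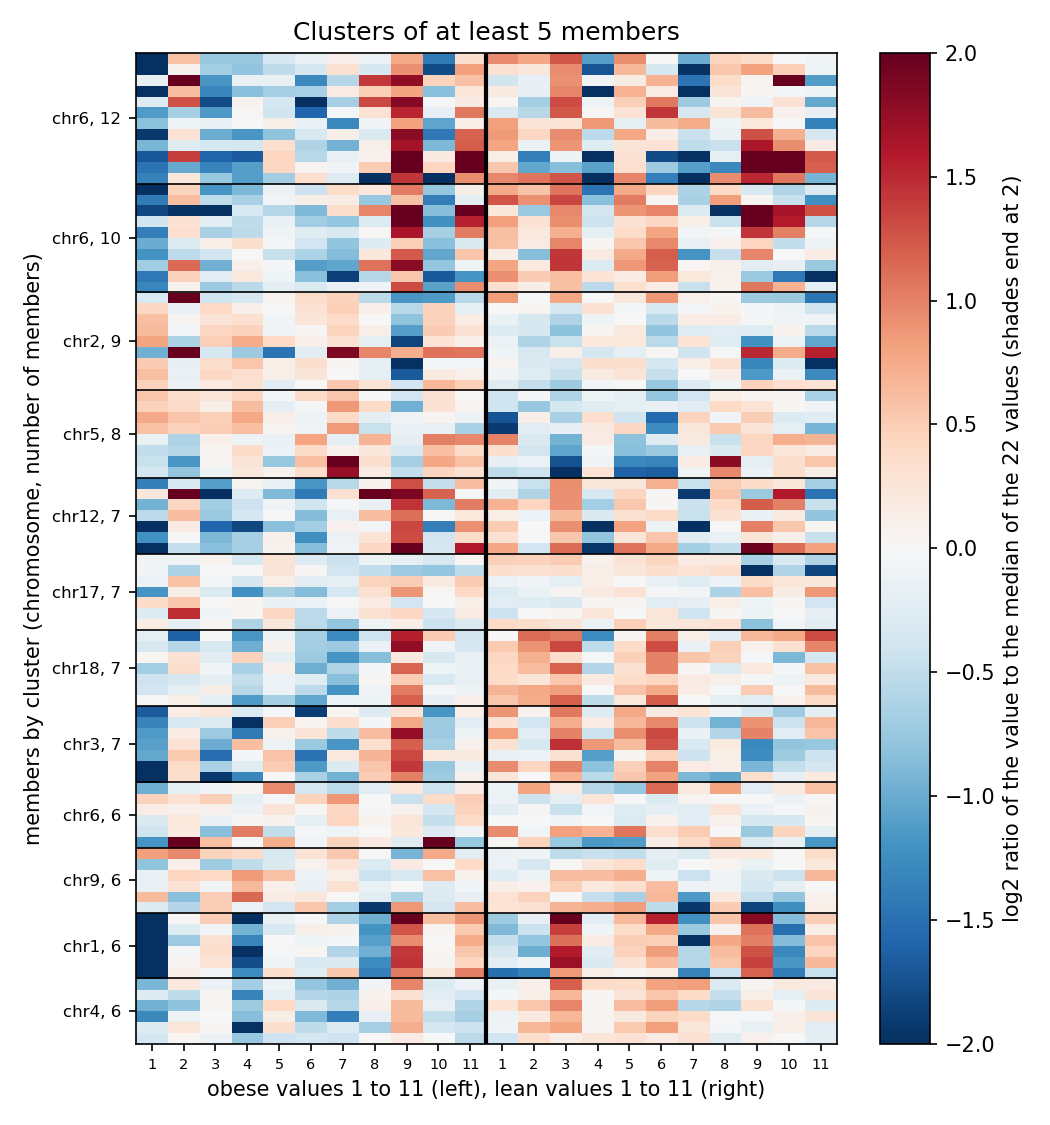
Log2 ratio of each of the 22 values to the median of its region, for the members of the 12 clusters with at least 5 members; each line is a member, obese values 1 to 11 stand left of the black line and lean values 1 to 11 right of it. Whole stretches of a column share a colour within a cluster, as for obese value 9 in the first 2 clusters on chromosome 6 and lean value 3 in the cluster of 6 on chromosome 1.

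Other clusters had their own high libraries. On chromosome 12, from 48910401 to 48942600, obese value 9 was the highest in 6 of 7 members, at 2.53 times the region's median. On chromosome 1, from 284481401 to 284512300, lean value 3 was the highest in 5 of 6 members, at 2.84 times. In clusters on chromosome 18 (287701 to 336500) all 7 members, and on chromosome 4 (110281901 to 110304300) all 6 members, were lower in obese pigs, but 0 of the 7 and 0 of the 6 were called under either alternative scaling described below.

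Some members overlapped each other. There were 18 overlapping pairs made of 28 members, and in 17 pairs the group averages pointed in opposite directions. On chromosome 9, for example, the member from 16885001 to 16887000 had averages of 17535 in obese and 16303 in lean pigs. The member from 16884901 to 16885900, which shares 900 bases with it, had 1218 and 1520.

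The test across all regions was limma on log2 of the normalized count plus 1, with the p-value adjusted over 7401 regions and a threshold of 0.05. Since the table holds regions that the authors had called between these animals, and since the members were chosen by values of the same animals, its calls are a description. Among the members 175 were higher in obese pigs (42.2%; 27.1% of all regions were) and 69 were lower (16.6%; 69.0% of all regions were). The remaining 171 members (41.2%) did not pass, against 1.29% of the other regions, and either direction took 58.8% of the members where 96.2 percent of all regions passed. The authors' test asks for a larger difference where reads are few, and the rule takes the regions with most reads. This gap is therefore not a result about the members. The median log2 difference of the members was 0.27, and that of all regions was −0.67. With the bound on the mean lowered to 30, 576 of 908 regions were higher and 141 were lower, with a median of 0.41. The rises are therefore not particular to the members. The other scalings changed the lower calls: with the median of ratios over all regions 222 members were higher and 1 was lower, with a median of 0.59, where 28.7 percent of all regions were higher and 10.5 percent lower. With the mean read count per bin 200 were higher and 3 were lower, with a median of 0.57, where 28.3 percent of all regions were higher and 14.9 percent lower. These scalings moved the median of all regions by 0.30 and 0.28 on the log2 scale, so relative to that shift the members moved by about as much as the table did. A shift upward keeps higher calls and ends lower ones, so the kept calls are no sign of stability. The median of ratios also takes most regions as unchanged, whereas this table holds regions called different, of which 69.0% were lower by limma. Lower calls that are lost under it, here and elsewhere, therefore do not show which scaling is right. Without obese value 9 the number of lower members was 110.

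**Figure D3:**
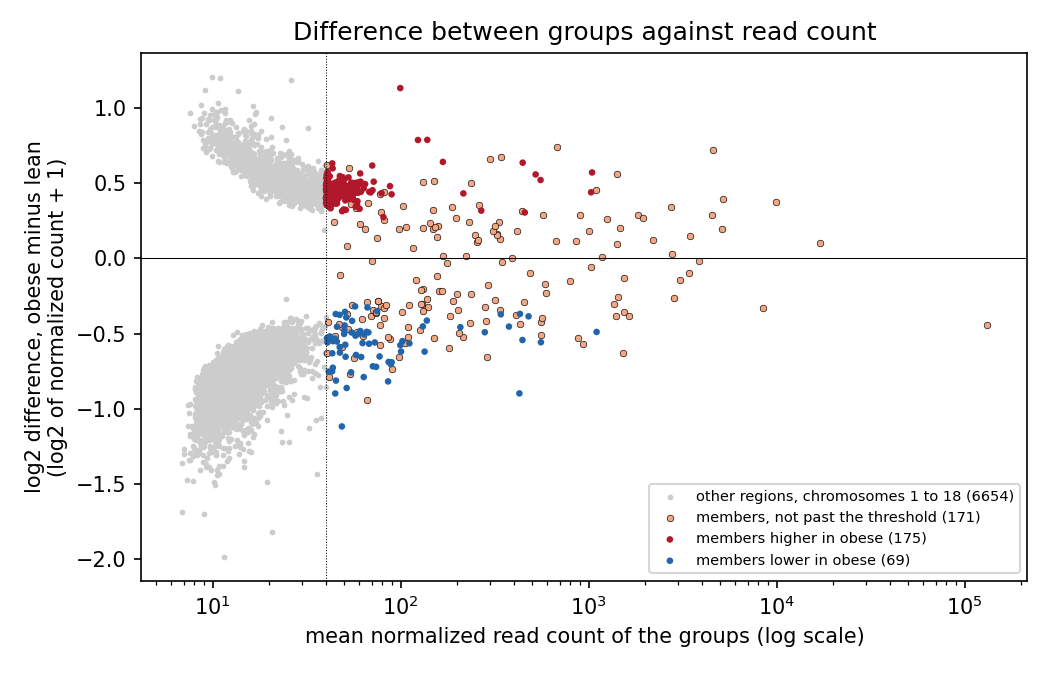
Log2 difference between obese and lean pigs against the mean normalized read count (log scale), 1 point for each region; the dotted line marks a mean of 40. Members higher in obese (175), lower (69) and not past the threshold (171) are coloured, and the members with the highest counts lie mostly between −0.5 and 0.5.

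The calls differed with the level within the members. Level is the value that the rule used, and the authors' test had already selected regions on these counts. That test asks for a larger difference where reads are few, so the numbers by level are a description. Of 203 members with a mean from 40 to 60, 146 were higher, 34 were lower and 23 did not pass. Of 67 from 60 to 100 the numbers were 18, 19 and 30, and of 93 from 100 to 500 they were 7, 14 and 72. Of the 52 members at 500 or more, 4 were higher, 2 were lower and 46 did not pass. Members near the threshold thus set the total: their median difference was 0.41, against −0.33, −0.21 and 0.06 in the classes above. With the median of ratios these 4 medians were 0.73, −0.01, 0.12 and 0.38, and with the count per bin 0.71, −0.03, 0.10 and 0.37. Place went with level as well, since 53.7% of the members from 40 to 60 but 21.2% of those at 500 or more lay on a gene locus. Members outside clusters were mostly higher (158 of 220, 24 lower), whereas of the 195 within clusters 17 were higher, 45 were lower and 133 did not pass. Under the other scalings 0 of the clustered members were lower, and 52 with the median of ratios and 35 with the count per bin were higher. Of the members at 60 or more, 0 and 1 were lower there, and 70 and 52 were higher.

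Just inside the threshold stood a region on chromosome 3 (56619101 to 56620600, on ENSSSCG00000022565) with a mean of 40.03, a region on chromosome 1 on DBH, the enzyme that makes noradrenaline, with 40.09, and a region on chromosome 3 on the kinase gene LMTK2 with 40.09. Just outside it stood regions on chromosome 1 at MED27 with 39.98, on chromosome 11 at KBTBD6 with 39.94 and on chromosome 6, 175885 bases from a 7SK locus, with 39.92. In 5 of these 6 regions the obese average was the higher one, and the exception was the region on chromosome 6 with 33.8 in obese and 46.0 in lean pigs. The LMTK2 member lost its limma call without lean value 2 (adjusted p = 0.0544), and the one on ENSSSCG00000022565 without obese value 4 (0.0503).

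The spread between libraries was set beside that of counting alone. The median coefficient of variation (CV) within groups was 27.8% in members, where counting alone would give 15.4%, and 35.4% in other regions, where counting would give 32.6%. In 157 members and 3 other regions the CV was over 3 times that of counting. The rule fixes much of this gap, since other regions have fewer reads and a counting CV of 17.5% to 53.4%, and no part of the spread was assigned to a source. The median CV of obese values was 29.3% and that of lean values 24.8%, and in the other regions these were 39.1% and 28.7%, so the order is not particular to the members.

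**Figure D4:**
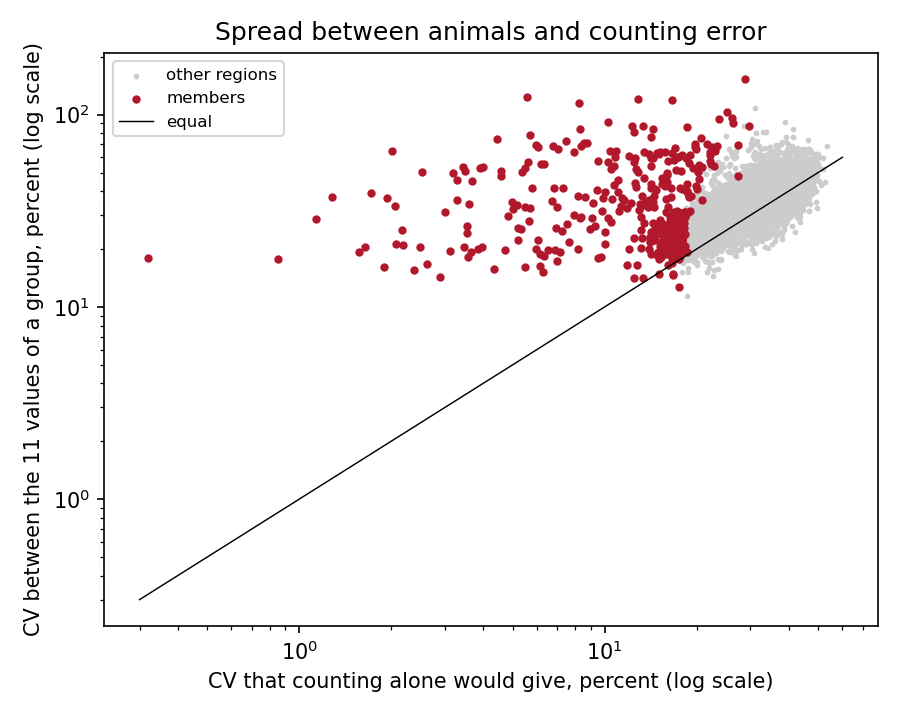
Coefficient of variation between the 11 values of a group, pooled over the groups, against the one that counting alone would give, both in percent on log scales; the line marks equality. Other regions lie near the line, whereas most members with a low counting error lie far above it.

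In 52 members (12.5%) the highest value was at least 3 times the median of the 22, against 2.43% of the other regions. Of these, 19 had such values in both groups. The ratio was largest on chromosome 6 from 143447301 to 143448500, where it was 13.9. There obese values were 17.1 at the lowest, 61.1 at the median and 798 at the highest, and lean values 2.63, 53.7 and 614. A few libraries of each group were high, 2 obese and 2 lean ones at 3 times the median or more, and the groups overlapped throughout (log2 difference 0.51, SE 0.73, limma adjusted p = 0.487).

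The next in order, on chromosome 6 from 33925701 to 33927600, had a ratio of 11.97 and 173685 bases to the nearest locus, a 7SK gene. Its obese values were 23.2, 70.5 and 839.7, and its lean values 23.7, 76.5 and 879.7, each as lowest, median and highest. The values fell into a low and a high set in both groups, with 5 obese and 3 lean ones at 3 times the median or more, and the groups did not differ past the threshold (0.50, SE 0.62, limma adjusted p = 0.43). The other 3 members named for this ratio lay on chromosome 2 (100141301, ratio 9.55, and 100108201, ratio 9.54) and on chromosome 4 (50265901, ratio 7.85). In each of them obese value 2 was the highest.

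High values were not spread evenly over the libraries. The highest of the 22 values was an obese one in 300 members (72.3%) and a lean one in 115, whereas it was an obese one in 31.7% of all regions. Obese value 9 was at least 2 times the region's median in 68 members and the highest in 58, and lean value 3 in 44 and 42. As shares, obese value 9 was the highest in 14.0% of the members and 2.51% of all regions, and lean value 3 in 10.1% and 8.15%. These libraries also had the largest mean read count per bin for their constant, 2.72 and 2.64, where the medians were 1.49 in obese and 1.88 in lean libraries. Obese values 1, 4 and 7, with constants of 0.41, 0.34 and 0.89, were the highest in 70, 57 and 55 members (16.9%, 13.7% and 13.3%), against 6.35%, 9.08% and 5.20% of all regions. Lean values 7, 8 and 11, with constants of 0.38, 0.46 and 0.50, were the highest in 7, 4 and 10 members (1.69%, 0.964% and 2.41%), against 11.04%, 6.28% and 12.1% of all regions. The part of these library properties in the high values was not tested.

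**Figure D5:**
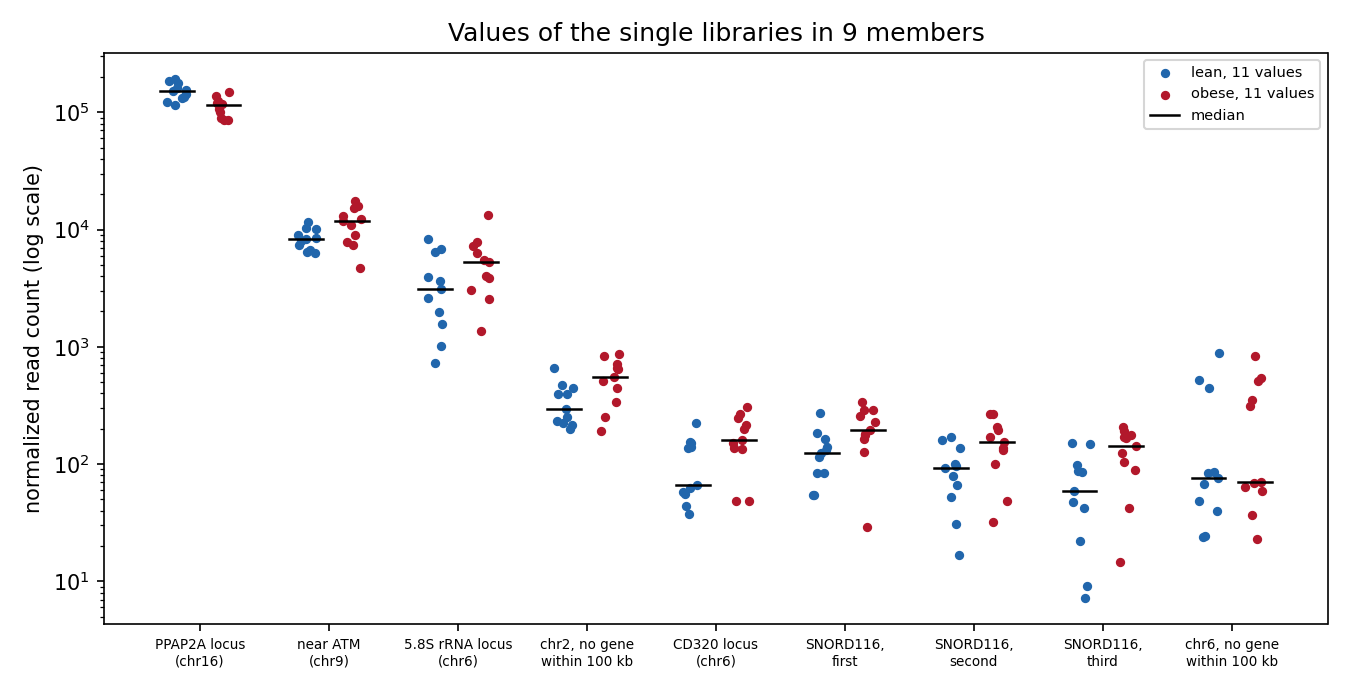
Normalized read counts (log scale) of the 11 lean (blue) and 11 obese (red) libraries in 9 members, with the group median as a black line. The PPAP2A member is at 85338 or more in every library, the groups overlap in all 9 members, and the last member on chromosome 6 splits into a low and a high set in both groups.

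Among the 10 members with the highest mean, the PPAP2A region was followed by chromosome 9, 16885001 to 16887000, with a mean of 16919. Next came chromosome 9, 40840901 to 40847900, which lies 7361 bases from ATM, the kinase that responds to breaks in DNA, and belongs to a cluster of 6. Its obese values were 4738 at the lowest, 11724.5 at the median and 17515 at the highest, and its lean values 6358, 8279 and 11687. Obese values were more often high and also held the lowest value, and the difference of 0.37 (SE 0.25) did not pass (limma adjusted p = 0.14). It passed under both other scalings and without obese value 9 (adjusted p = 0.038, the lowest with values left out, where the highest was 0.228). The other high members were on chromosomes 1, 6, 11, 12 and 16, and one of them, on chromosome 16 from 54879301 to 54885500, lay 2600 bases from CPEB4, a regulator of translation. In limma with the deposited constants and all 22 values 0 of the 10 were called, and at an unadjusted p under 0.05 there were 0 as well. With the median of ratios 6 of the 10 were higher, the members near ATM and CPEB4, the 5.8S rRNA member described next and those on chromosomes 6 (856801), 11 (37947101) and 16 (54721901), and with the count per bin 3 were, those near ATM, at the 5.8S rRNA and from 54721901. The last of these also passed without obese value 4 (adjusted p = 0.0447).

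The ribosomal RNA member lay on chromosome 6 from 863701 to 876800, 13100 bases that hold a 5.8S rRNA locus, the micro RNA ssc-mir-4332 and the unnamed genes ENSSSCG00000021356 and ENSSSCG00000025162. The 5.8S rRNA is a part of the large ribosomal subunit. Normalized counts were 1370.5, 5275 and 13185 in obese and 723, 3084 and 8242 in lean libraries, as lowest, median and highest. Obese value 10 was the highest by far and the groups overlapped, and the difference of 0.72 (SE 0.38) did not pass (limma adjusted p = 0.0702), though it passed with both other scalings (adjusted p = 0.035 and 0.0467). It also passed when obese value 3, obese value 5, lean value 2, lean value 10 or lean value 11 was left out, and the adjusted p ran from 0.0246 to 0.16 over the 22 values left out in turn. In the RRBS table that asks for 3 pigs a group, 10 CpG sites inside this member had a mean methylation of 27.1% in obese and 39.0% in lean pigs, as the authors' group means.

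Of the 171 rRNA loci, 1092 small nuclear RNA loci and 254 micro RNA loci in the tables, 1 each had a member, and of 573 small nucleolar RNA loci 4 did. The small nuclear RNA was a U6 copy on chromosome 10 (33726301 to 33728200) with obese values from 48.9 to 193 and lean values from 46.4 to 150.1, which overlapped and did not pass (limma adjusted p = 0.106). It passed with the median of ratios scaling and without obese value 9 or lean value 7, and with values left out its adjusted p ran from 0.0238 to 0.211. Loci of 7SK, Y, Cajal body and signal recognition particle RNA had 0 members.

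The small nucleolar RNA was SNORD116, which comes from an imprinted cluster and is expressed from the father's copy in mammals. Of 36 genes on a list of imprinted genes 27 had a locus in the tables, and SNORD116 was the one with members, 3 in a row on chromosome 1 between 157999601 and 158010000. These were also among the 5 largest rises of members past the threshold, while 4 members that did not pass, on chromosomes 4 and 6, had larger differences than the first of them. In the first of them obese values were 29.1, 195 and 341 and lean values 54.8, 125 and 270.2; in the next they were 32.0, 155 and 269.8 against 16.8, 92.8 and 171. In the last, from 158008101 to 158010000, they were 14.5, 143 and 208 against 7.23, 59.5 and 151.

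In all 3 the obese median was the higher one, obese value 7 was the highest, and the groups overlapped. The log2 differences were 0.64 (SE 0.30), 0.79 (SE 0.35) and 1.13 (SE 0.46), with limma adjusted p of 0.0455, 0.0346 and 0.0218. The calls changed with single libraries. With the 22 values left out in turn, the first member lost its call in 14 cases and kept it in 8, with an adjusted p from 0.00895 to 0.0925. These were obese values 1, 2, 3, 5, 6, 7, 10 and 11 and lean values 2, 3, 6, 7, 10 and 11. The next lost it in 8 cases, without obese value 1, 2, 6, 7 or 10 or lean value 2, 6 or 10, with an adjusted p from 0.0104 to 0.0853. The last lost it without lean value 2 or lean value 6 (highest adjusted p = 0.0521). The first was also not called at a pseudocount of 0.5 or without a trend in the prior variance (adjusted p = 0.0635). SNORD116 was also among the genes that the study names, so it is not an independent choice.

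The other large rises were CD320 and a region far from genes. CD320 is the receptor that takes up vitamin B12 bound to transcobalamin, and its member on chromosome 6 (73954501 to 73960300) had a lowest obese value of 48.1 and a median of 162, with obese value 4 the highest of all, and lean values of 37.2, 65.8 and 224.4. Most obese values stood above the lean median and the groups overlapped, with a difference of 0.79 (SE 0.32, limma adjusted p = 0.0214). On chromosome 2 from 134067001 to 134069700, 381549 bases from the nearest locus, obese values were 193, 552 and 870.2 and lean values 198, 297 and 660.5, which differed by 0.64 (SE 0.24, limma adjusted p = 0.0158).

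Among members past the threshold the largest fall was on chromosome 7 from 82250601 to 82253500, on ENSSSCG00000021543. Obese values there were 6.72, 25.3 and 61.3 and lean values 28.1, 56.1 and 120.3. The obese values were the lower ones on the whole, with overlap, and the difference of −1.12 (SE 0.28, limma adjusted p = 0.00849) also passed under both scalings (adjusted p = 0.012 and 0.00994). The next 4 falls past the threshold lay off gene loci, at −0.90 on chromosomes 18 (225001) and 3 (142730901), −0.86 on chromosome 3 (142479401) and −0.82 on chromosome 13 (34812501), 7710 bases from SLC25A20, the carnitine carrier of mitochondria. A member on chromosome 1 (284454001) had a difference of −0.94 without passing (limma adjusted p = 0.134). With the median of ratios 0 of these 4 passed, and with the count per bin those on chromosome 18 and at 142730901 did (adjusted p = 0.0347 and 0.0359). The one near SLC25A20 lost its call in 9 of 22 cases, without obese value 4, 6, 7, 10 or 11 or lean value 4, 6, 9 or 11 (adjusted p from 0.013 to 0.072), and the other falls and the rises at CD320 and on chromosome 2 kept theirs in all 22.

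The 11 obese and 11 lean values did not overlap in 1 member, against 0.149 percent of all regions. It lies on chromosome 13 from 217118501 to 217120400 on TRPM2, a calcium-permeable ion channel. Obese values were 41.2, 47.0 and 56.2, lean values 23.6, 36.9 and 39.3, and every obese value stood above every lean one (0.50, SE 0.12, limma adjusted p = 0.00849). It was named after its values were seen.

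A locus is the span of a gene in the expression tables, which do not tell exons, introns and untranslated parts apart. On this measure 157 members (37.8%) lay on a locus, against 42.2% of all regions, and 126 (30.4%) lay over 50000 bases from any, against 25.8%. Members on a locus were mostly higher in obese pigs (117 of 157, 16 lower, and 1 lower under each of the other scalings), and of the 258 off a locus 58 were higher, 53 were lower and 147 had no call. Of all regions, 39.1% on a locus and 18.4% off one were higher, and 58.4% and 76.8% were lower. The lower calls off a locus depended on the scaling: with the median of ratios 94 of the 258 were higher and 0 were lower, and with the count per bin 77 and 2.

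Several genes held a row of members. DBNDD1 on chromosome 6 had 9, with means from 138 to 2190.1, of which 1 was higher and 1 was lower. TBCD, which helps to fold tubulin, had 5 on chromosome 12 between 300001 and 408000, all 5 higher in obese pigs by 0.41 to 0.55. The members on TBC1D22A, on TDRD9, a helicase of the germline pathway that silences transposons, and on ENSSSCG00000024952, 3 each, were all higher. Most members on any locus were higher as well, 117 of 157. The members on TBCD and on these 3 genes were all in the lowest class of level, where 146 of 203 were higher. Members on the same gene may also depend on each other. These rows of higher members are therefore not a result about the genes. The 3 on ENSSSCG00000025680 and the 3 on ENSSSCG00000027174 were all lower, but 0 of these 6 calls were kept under either of the other scalings. The lower call on DBNDD1 was lost there too, and 5 and 3 of its members were higher. These loci were named after their counts of members were seen.

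RRBS, an assay that the rule did not use, touched few members. In the RRBS table that asks for 5 pigs a group, 4 members (0.964%) overlapped an RRBS region, against 0.338% of all regions. On UBE3C, a ubiquitin ligase gene on chromosome 18, the authors' mean methylation was 89.7% in obese and 79.7% in lean pigs, and captured counts were higher in obese pigs too (0.42, SE 0.13, limma adjusted p = 0.00873). On chromosome 13 (87552101 to 87556100) the means were 77.1% and 65.2%, with a captured difference of 0.18 that did not pass (limma adjusted p = 0.199). On chromosome 2 (100157601) they were 77.3% and 88.4%, and on chromosome 5 (43486101) 76.7% and 89.0%, while captured counts there were higher in obese pigs by 0.34 and 0.56. The difference on chromosome 2 did not pass (limma adjusted p = 0.076). Of the 2 members with a captured difference past the threshold, the RRBS means pointed the same way in 1, on UBE3C, and the opposite way in the other. In the table that asks for 3 pigs a group the signs of the differences were the same in 3 of 7 members and opposite in 4, and 1 of the 7 captured differences passed, with an opposite sign. The RRBS means are given without an error, since the reads behind each region are not analysed here.

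RNA at the members was measured in 5 lean and 5 obese pigs. Of 137 gene identifiers with a member on their locus, 51 had a mean of at least 1 FPKM and were tested with limma, and 15 were listed at a mean of 0. Adjusted over 10246 genes, 0 of the 51 passed, where 0.00976 percent of all genes did, a share that rests on 1 gene. Without lean pig 1 the calls among all genes numbered 147 (1.44%), and with the libraries of pig-572 as separate samples 162 (1.59%), and 1 gene at a member passed in each case. At an unadjusted p under 0.05 there were 16 (31.4%; 20.4 percent of all genes), of which 15 were higher and 1, THBS2, was lower in obese pigs. The median log2 difference of the 51 was 0.25, and that of all genes tested was 0.0052. In bulk RNA, fewer cells of a type and less RNA per cell cannot be told apart.

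The lowest adjusted p was that of C9ORF86. Its FPKM was 3.44, 2.66, 2.37, 2.50 and 2.40 in the lean pigs and 5.24, 3.85, 4.49, 5.49 and 6.10 in the obese ones. Every obese pig stood above every lean one, and the difference was 0.71 (SE 0.12, limma adjusted p = 0.0579). It passed without lean pig 1 (adjusted p = 0.0363) and with the libraries of pig-572 taken apart, which counts 1 animal as 2 samples (0.0261), and over all settings the adjusted p ran from 0.0261 to 0.177, the highest without obese pig 5. TBCD was at 2.03, 1.97, 1.50, 1.64 and 2.13 FPKM in lean and 3.13, 2.22, 3.15, 2.81 and 3.25 in obese pigs (0.45, SE 0.10, limma adjusted p = 0.0974, and 0.0578 to 0.233 over all settings). Again no value of a group reached into the other, which held for 6 of the 51 genes, the other 4 being SPG7, CLPTM1L, SBF1 and TADA2B, and for 4.11 percent of all genes tested. These genes were named after their values were seen. THBS2, a matrix glycoprotein, had 13.9, 13.1, 27.5, 15.4 and 10.8 FPKM in lean and 4.08, 12.9, 7.36, 2.97 and 4.65 in obese pigs (−1.29, SE 0.34, limma adjusted p = 0.121).

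The RNAs with the highest FPKM at members were small ones, whose FPKM is uncertain since they are short and exist in many copies. As FPKM is scaled to length, a short RNA can reach a high value from few reads. The paper describes SNORD116 expression in these cells as relatively low. The 5.8S rRNA, left over after the depletion of ribosomal RNA, was at 42160, 67236, 70826, 101182 and 169184 FPKM in lean and 80086, 84938, 52828, 63779.5 and 185226 in obese pigs, with full overlap (0.06, SE 0.43, limma adjusted p = 0.948). The SNORD116 copy ENSSSCG00000029014 was at 11394, 12559, 20831, 10862 and 18622 FPKM in lean and 27548, 17623, 17962, 25381 and 23373 in obese pigs. The obese values were the higher ones on the whole, lean pigs 3 and 5 stood above obese pigs 2 and 3, and the difference of 0.62 (SE 0.25) did not pass (limma adjusted p = 0.213). The SNORD116 copies ENSSSCG00000026099 and ENSSSCG00000027296 had equal values in 8 of 10 pigs. In lean pig 1 both were at 237.4 FPKM, and the copy ENSSSCG00000025061 was at 474.8. In lean pig 2 ENSSSCG00000026099 was at 172.0, and ENSSSCG00000027296 and ENSSSCG00000025061 were both at 516.1. Whether only a few reads lie on each copy, or reads are shared between copies, was not tested. CD320 was at a mean of 13.4 FPKM in lean and 15.3 in obese pigs (0.26, SE 0.37, limma adjusted p = 0.713).

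The label of the cells was checked in the same RNA. Of 14 adipocyte markers 6 had a value in every library, and PLIN1, which coats the lipid droplet, was the most abundant at a mean of 315 FPKM. The summed FPKM of these markers was 655 to 808 in lean and 826 to 957 in obese pigs, without overlap. Of the 6, 0 passed limma and 2 had an unadjusted p under 0.05. ADIPOQ, FABP4 and LPL were among the 8 without a usable value under these names. Markers of macrophages and leukocytes (7 of 8 found) had a median of 0.385 FPKM, those of endothelium (4 of 5) 0.393 and those of muscle (3 of 4) 0.0231. Fibroblast and preadipocyte markers were higher, with 7 of 7 found at a median of 9.67 and COL3A1 at 397, and their sum was 231 to 702 in lean and 258 to 638 in obese pigs. HBB of red blood cells was at 31.3 FPKM. The part of these other cells in the RNA or captured DNA was not tested. No marker with a locus under these names had a member on it, and 7 of the 14 adipocyte markers had such a locus.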

How the data were processed

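For mDNAcap the authors trimmed reads, mapped them (Sscrofa10.2) and called regions with diffReps 1.55.4 from 1000-base windows and 100-base steps (G-test, p cutoff 0.0001). The deposited value of a library is a normalized count, and the group average, a deposited signal, is taken over 11 of them. For RNA the authors estimated FPKM with Cufflinks 2.2.0. For RRBS the deposited fraction is the mean methylation of a group in a metilene region, printed as percent. The authors' fold changes, p-values and differences were not used.

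Members were those with a mean of at least 40. Normalized counts (plus 1) and FPKM (plus 1, median of ratios scaling, mean of at least 1, the libraries of pig-572 averaged) were compared on the log2 scale with limma 3.58.1 (eBayes with trend, Benjamini-Hochberg, both directions) in R 4.3.3, tested on simulated data. SE is limma's moderated error. Overlaps came from bedtools 2.31.1; tables and figures from pandas 2.3.3 and matplotlib 3.10.9 in Python 3.11.15. Of 25285 gene identifiers 17794 were named in the tables and 1157 from a reference list. Named were the members highest in mean, ratio, called rise and called fall, the largest clusters, those on small RNA, imprinted or study-named genes and those in RRBS regions. Alternatives were the pseudocount, scaling, thresholds, prior trend, cluster gap, overlap rule and each library left out. The members and lists were chosen with earlier results of these data known. The total depth of the libraries is not used here, and the reads behind single FPKM and RRBS values are not analysed here.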

Additional observations from a re-analysis of the deposited data

Results flagged for a closer look

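For 21 genes named at members, each group of 5 pigs was searched for a value far from the other 4, and 8 of 34 groups had one, not counting groups with a 0 in every pig. In 2 of these the other 4 values are all 0, so that any value stands out, and of the remaining 32 groups 6 had one. The bound lets about 1 in 20 groups pass where values are independent and normally distributed. FPKM was searched here without a log scale, and genes on the same member are not independent. The count of groups is therefore not compared with that share. The 5.8S rRNA of obese pig 5 was at 185226 FPKM, and the other obese pigs were at 52828 to 84938. In the same pig ENSSSCG00000021356, which lies on the same member, was at 53899.9 FPKM, against 2821 to 7430.4. Obese pig 5 is pig-572, whose values are averaged over its libraries. The title of its added library names pig-572, but the description of that library carries another number. The SNORD116 copy ENSSSCG00000025061 was at 2912.5 FPKM in obese pig 4, and at 805 to 1413 in the others. CD320 was at 26.5 FPKM in obese pig 1, against 10.8 to 15.3. THBS2 was at 27.5 FPKM in lean pig 3, against 10.8 to 15.4. C9ORF86 was at 3.44 FPKM in lean pig 1, against 2.37 to 2.66. ENSSSCG00000021543 was at 0.0481 FPKM in lean pig 4 and at 0.0581 in obese pig 4, and was listed at 0 in the other 8 pigs. The groups of 11 captured values were not searched in this way. Causes were not tested.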

How the results depend on the processing

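No paired analysis was possible because each pig belongs to 1 group only and the captured values carry no names of animals. Of 112 summary values under other settings, 93 stayed within 1.5 times the count or 1 SD of the value, and 19 moved. Among those that moved, the median difference changed sign at a mean of at least 60. The number of members lower in obese pigs (69) was 1 with the median of ratios scaling, 3 with the mean read count per bin, 141 of 908 at a mean of at least 30, 35 of 212 at a mean of at least 60, 26 at an adjusted p under 0.01, and 59 to 110 when each value was left out in turn, with 110 without obese value 9. The number of higher members (175) was 576, 29 and 83 under these thresholds (mean 30, mean 60, adjusted p 0.01) and 155 to 192 with values left out. The median difference (0.27) was 0.59 and 0.57 under the scalings, 0.41 at a mean of at least 30, −0.15 at a mean of at least 60, and 0.24 to 0.30 with values left out. The mean thresholds admit other regions by construction; for the scalings and obese value 9 the cause was not tested. Genes with changed RNA (0) numbered 1, C9ORF86, with the libraries of pig-572 as separate samples (1 animal counted as 2), where 1.59% of all genes passed, and 0 to 1 with pigs left out, with 1 without lean pig 1, where 1.44% did. Clustered members (195) numbered 117 at a gap of at most 2000 bases. The share on a locus (37.8%) was 47.5% with loci extended by 5000 bases and 33.3% where at least 50 percent of the region had to lie on it. Members that overlap an RRBS region (4) numbered 7 in the table that asks for 3 pigs a group. For 18 named members past the threshold, 441 of 486 values under other settings stayed past it and 0 changed sign; 45 lost the call, those of the SNORD116 members, the member near SLC25A20, LMTK2, ENSSSCG00000022565 and, under other scalings, further falls.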
